A study of Homo sapiens with 26 samples.

Results

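Host genes of small nucleolar RNAs are transcribed as longer precursors whose introns are trimmed into small nucleolar RNAs, the short guides that direct the chemical modification and cleavage of other RNAs. Box C/D small nucleolar RNAs guide 2′-O-methylation and box H/ACA ones guide pseudouridylation. The spliced exons that remain often encode no known functional protein, and several are short-lived because translation sends them into nonsense-mediated decay. The 10 genes described here, SNHG12, SNHG3, SNHG15, SNHG20, ZFAS1, GAS5, SNHG1, SNHG5, SNHG6 and SNHG8, were chosen by name as spliced noncoding hosts, with their labeling differences in these libraries already known. All 10 had an entry among the 25745 genes of the deposited table, and all 10 were among the 22284 genes that passed a filter on low values (log2 FPKM above 0 in at least 3 libraries).

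The libraries came from HEK293T, derived from human embryonic kidney, stably expressing APEX2, an engineered peroxidase that tags nearby molecules with biotin when it is given biotin-phenol and hydrogen peroxide. APEX2 was fused to Lyn11 or Lck sequences, which the design text places inside the plasma membrane, or to CD28 or PDGFR sequences, which it places outside. The groups were Lyn11 labeled (4 libraries) and Lyn11 control (4), Lck labeled (3) and Lck control (3), CD28 labeled (3) and CD28 control (3), and PDGFR labeled (3) and PDGFR control (3), each an RNA preparation from cells of the construct named, enriched on streptavidin beads. The labels list 30 min of biotin-phenol and 1 min of 1 mM hydrogen peroxide for all groups. The sources used here do not give the step that controls lacked, or whether the cells of a construct came from 1 clone.

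The inside libraries held 19.51 to 34.82 M recovered reads in 14 libraries and the outside libraries 11.34 to 16.26 M in 12, so depth and side of the membrane cannot be told apart. The libraries CD28 labeled 2 (3158 genes at 0 reads) and PDGFR control 2 (3032 genes) stood out from the rest. Of 6 markers expressed in HEK293 lines, 5 had an entry, led by VIM at 29.2 to 74.3 FPKM and NEFL at 11.5 to 22.8 FPKM, while INA was at 0.1 to 0.775 FPKM. None of 3 liver markers had an entry.

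The hosts differ in how many guide RNAs they hold. RefSeq places 35 within the 10 genes, of which 25 are box C/D, 8 are box H/ACA, 1 is a Cajal body RNA and 1 has no such name. GAS5 holds 11 and SNHG1 holds 9. SNHG12 holds 4, SNORD99, SNORA61, SNORA44 and SNORA16A. ZFAS1 holds 3, SNORD12, SNORD12B and SNORD12C. SNHG3 holds 2, SNORA73A and SNORA73B, and SNHG5 holds 2, SNORD50A and SNORD50B. SNHG15 holds SNORA9, SNHG20 holds SCARNA16, SNHG6 holds SNORD87 and SNHG8 holds SNORA24. GENCODE 29 lists 21 of these loci, and 4 of the 21 had an entry of their own in the deposited table: SNORD99, SNORA73B, SNORD12C and SNORD12B.

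The guides of SNHG12, SNHG3 and ZFAS1 are shown because these hosts and the RNAs they hold are set side by side further on. Coordinates are hg38 with the GENCODE 29 annotation, and letters are DNA letters of the transcribed strand. On chromosome 1, SNHG12 holds SNORD99 (chr1:28578749-28578822), SNORA61 (chr1:28579764-28579893), SNORA44 (chr1:28580381-28580512) and SNORA16A (chr1:28580920-28581056), all on the minus strand. SNHG3 holds SNORA73A (chr1:28507366-28507571) and SNORA73B (chr1:28508559-28508762) on the plus strand, and ZFAS1 holds SNORD12C (chr20:49278940-49279028), SNORD12B (chr20:49280319-49280409) and SNORD12 (chr20:49280683-49280772) on the plus strand. Capitals mark TGATGA in the first 20 bases and CTGA in the last 20 bases of box C/D RNAs, and ACA followed by 2 to 4 bases at the 3′ end of box H/ACA RNAs, searched on the transcribed strand alone, with no overlap between the motifs.
SNORD99: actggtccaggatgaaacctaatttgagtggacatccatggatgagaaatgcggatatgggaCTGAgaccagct
SNORA61: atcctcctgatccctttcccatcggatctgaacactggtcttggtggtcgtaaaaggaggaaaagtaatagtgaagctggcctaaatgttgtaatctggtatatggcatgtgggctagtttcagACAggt
SNORA44: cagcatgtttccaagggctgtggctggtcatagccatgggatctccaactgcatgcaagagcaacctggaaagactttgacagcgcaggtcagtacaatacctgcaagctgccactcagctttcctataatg
SNORA16A: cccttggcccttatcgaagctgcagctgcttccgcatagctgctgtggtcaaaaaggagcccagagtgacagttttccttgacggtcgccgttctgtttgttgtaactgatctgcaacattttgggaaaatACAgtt
SNORA73A: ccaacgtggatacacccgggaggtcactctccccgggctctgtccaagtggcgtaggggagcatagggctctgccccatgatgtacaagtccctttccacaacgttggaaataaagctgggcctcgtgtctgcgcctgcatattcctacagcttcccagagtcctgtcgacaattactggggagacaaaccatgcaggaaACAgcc
SNORA73B: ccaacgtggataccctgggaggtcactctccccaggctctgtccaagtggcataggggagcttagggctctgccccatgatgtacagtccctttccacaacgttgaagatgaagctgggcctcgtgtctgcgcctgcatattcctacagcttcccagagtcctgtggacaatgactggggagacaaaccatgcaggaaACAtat
SNORD12C: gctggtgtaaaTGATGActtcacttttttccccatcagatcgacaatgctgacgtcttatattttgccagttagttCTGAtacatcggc
SNORD12B: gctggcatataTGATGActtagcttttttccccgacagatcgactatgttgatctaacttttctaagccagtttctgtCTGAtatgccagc
SNORD12: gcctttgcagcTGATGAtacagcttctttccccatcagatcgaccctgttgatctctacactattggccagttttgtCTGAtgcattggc
Of 278 SNORD sequences in GENCODE 29, 69.1% hold TGATGA and 95.7% hold CTGA in these windows, and 84.4% of 147 SNORA sequences hold the ACA. SNORD99 has the CTGA without a TGATGA in its window, and SNORA44 has no ACA in that place. SNORA73A and SNORA73B are identical over 93.2% of 206 aligned positions, so short reads could fit both. The SNORD12 copies are identical pairwise over 69.8% to 74.2% of aligned positions.

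Members' rows also differ in what was counted. The lengths that turn the deposited values into whole reads were 3377 bases for SNHG12, 4088 for SNHG3, 3647 for SNHG15, 3118 for SNHG20, 2243 for ZFAS1, 3631 for GAS5, 3756 for SNHG1, 2794 for SNHG5, 1247 for SNHG6 and 923 for SNHG8. These cover 95.6% of the genomic span of SNHG1, 92.6% of that of SNHG15 and 83.2% of that of SNHG3, against 12.8% for ZFAS1 and 15.7% for SNHG5. Exon models that reach into introns were therefore part of several entries, and spliced and unspliced RNA cannot be told apart. SNORA73A and SNORD12 lie within exon models of their hosts over their whole 206 and 90 bases, while SNORD99, SNORA73B, SNORD12B and SNORD12C overlap no GENCODE 29 exon of their hosts. The lengths of the SNHG12, SNHG20 and SNHG5 entries differ from the 4266, 6087 and 2806 bases of GENCODE 29, so what their authors' models share with guide RNAs or neighbouring genes is not known.

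SNHG12 (chr1:28578538-28583132, minus strand) was higher in every labeled library than in every control library of the same construct. Its levels in log2 FPKM were 4.77, 4.75, 4.40 and 4.77 in Lyn11 labeled libraries, against 3.84, 3.74, 3.59 and 3.27 in Lyn11 controls. They were 4.65, 4.47 and 4.35 in Lck labeled libraries, against 3.26, 3.55 and 3.25 in Lck controls. The Lyn11 and Lck groups do not overlap. Levels were 4.91, 4.56 and 5.03 in CD28 labeled libraries, against 4.14, 3.69 and 3.76 in CD28 controls, and 5.25, 5.32 and 5.09 in PDGFR labeled libraries, against 3.79, 3.48 and 3.81 in PDGFR controls. Here too the groups are apart, and the lowest labeled library of all, Lck replicate 3, lay above the highest control, CD28 replicate 1. By group mean the order was PDGFR labeled (5.22), CD28 labeled (4.83), Lyn11 labeled (4.67), Lck labeled (4.49), and then CD28 (3.86), PDGFR (3.69), Lyn11 (3.61) and Lck (3.35) controls. PDGFR labeled libraries were clear of the next group, and otherwise neighbours overlapped, except at the step between labeled and control libraries. The labeling differences, labeled minus control on the log2 scale, were 1.06 ± 0.14 with Lyn11, 1.14 ± 0.16 with Lck, 0.97 ± 0.16 with CD28 and 1.53 ± 0.16 with PDGFR (± SE of a limma fit over all 26 libraries), and 1.18 ± 0.08 on average. In reads, the SNHG12 entry held 1119 to 2243 in labeled libraries and 516 to 1512 in controls. These differences were known when the gene was chosen and are a description without a test.

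**Figure D1:**
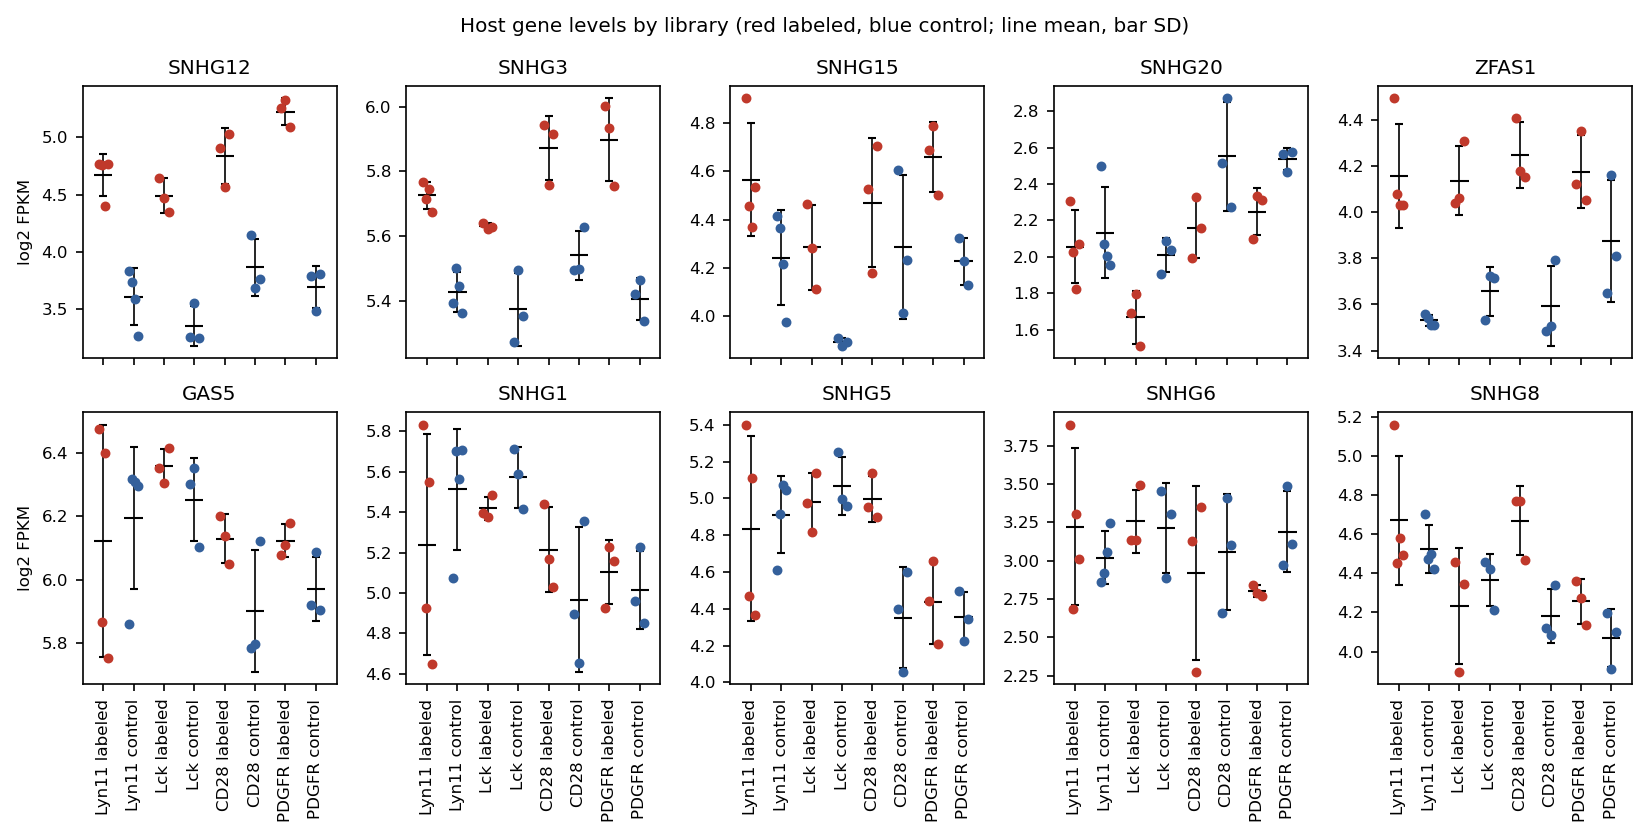
Levels of the 10 host genes in log2 FPKM (y axis, a separate scale per gene) in each of the 26 libraries (points, red labeled and blue control), by group along the x axis, with the group mean (line) and SD (bar). SNHG12 and SNHG3 have every labeled library above every control of the same construct, while the GAS5 and SNHG1 groups overlap in every construct.

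SNHG3 (chr1:28505980-28510892, plus strand), which hosts the U17 small nucleolar RNAs SNORA73A and SNORA73B, shares that separation at a smaller size. It had 5.77, 5.72, 5.75 and 5.67 log2 FPKM in Lyn11 labeled libraries, against 5.40, 5.50, 5.45 and 5.36 in Lyn11 controls. It had 5.64, 5.62 and 5.63 in Lck labeled libraries, against 5.28, 5.50 and 5.35 in Lck controls. Both pairs of groups were apart, by less than the labeling difference itself. CD28 labeled libraries had 5.94, 5.76 and 5.92, against 5.50, 5.50 and 5.63 in CD28 controls, and PDGFR labeled libraries had 64.1, 61.2 and 54.1 FPKM, against 42.9, 44.2 and 40.4 FPKM in PDGFR controls. The differences were 0.30, 0.26, 0.33 and 0.49 for Lyn11, Lck, CD28 and PDGFR, and 0.34 ± 0.04 on average. SNHG3 had the smallest residual SD of the 10 hosts, 0.079 log2 units, and SNHG6 the largest, 0.349. Of all 22284 genes tested, 0.512% had every labeled library above every control in each of the 4 constructs, as SNHG12 and SNHG3 did, and 0.108% had every labeled library below.

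ZFAS1 (chr20:49278178-49295738, plus strand), transcribed from the start region of ZNFX1 on the other strand, had 4.49, 4.08, 4.03 and 4.03 log2 FPKM in Lyn11 labeled libraries, against 3.56, 3.54, 3.51 and 3.51 in Lyn11 controls. Lck labeled libraries had 4.04, 4.06 and 4.31, against 3.53, 3.72 and 3.71 in Lck controls. CD28 labeled libraries had 4.41, 4.18 and 4.15, against 3.48, 3.50 and 3.79 in CD28 controls. In these 3 constructs labeled and control libraries did not overlap. PDGFR labeled libraries had 4.12, 4.35 and 4.05, against 3.65, 4.16 and 3.81 in PDGFR controls, where control replicate 2, the library with many genes at 0 reads, lay above 2 of the labeled libraries. Differences were 0.63, 0.48, 0.65 and 0.30 for Lyn11, Lck, CD28 and PDGFR, and 0.52 ± 0.07 on average.

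SNHG15 (chr7:44983023-44986961, minus strand), a short-lived transcript that hosts SNORA9, averaged 0.33 ± 0.08 higher in labeled libraries, with 0.32, 0.39, 0.19 and 0.43 for Lyn11, Lck, CD28 and PDGFR. Its Lck labeled libraries had 4.46, 4.28 and 4.11 log2 FPKM, against 3.91, 3.88 and 3.89 in Lck controls, and its PDGFR labeled libraries had 4.69, 4.79 and 4.50, against 4.32, 4.23 and 4.13 in PDGFR controls. Both pairs of groups were apart, and the Lyn11 and CD28 groups overlapped. SNHG20 (chr17:77086716-77099902, plus strand), the least abundant of the hosts per kilobase, at 2.85 to 5.04 FPKM in labeled libraries and 3.75 to 7.32 FPKM in controls, lay on the other side of 0. Lck labeled libraries had 1.69, 1.80 and 1.51 log2 FPKM, against 1.91, 2.08 and 2.04 in Lck controls. PDGFR labeled libraries had 2.10, 2.33 and 2.31, against 2.57, 2.47 and 2.57 in PDGFR controls. In both constructs every labeled library was below every control, and the differences were -0.07, -0.34, -0.39 and -0.29 for Lyn11, Lck, CD28 and PDGFR, with an average of -0.27 ± 0.08.

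GAS5, SNHG1, SNHG5, SNHG6 and SNHG8 had smaller or mixed differences. GAS5 (chr1:173863900-173868882, minus strand), named for its accumulation in growth-arrested cells and the host of the most guides here, was also the most abundant of the 10 by median FPKM, at 53.9 to 88.9 FPKM in labeled libraries and 55.1 to 81.7 FPKM in controls. Its differences were -0.07, 0.11, 0.23 and 0.15 for Lyn11, Lck, CD28 and PDGFR. SNHG1 (chr11:62851988-62855914, minus strand) had -0.27, -0.15, 0.25 and 0.09, and labeled and control libraries of both genes overlapped in every construct. SNHG5 (chr6:85660950-85678748, minus strand), a host of SNORD50A and SNORD50B, had -0.08, -0.09, 0.65 and 0.08, and SNHG8 (chr4:118278709-118279823, plus strand) had 0.15, -0.13, 0.49 and 0.19. For these last 2 genes the CD28 groups alone were apart. SNHG5 had 4.96, 5.14 and 4.90 log2 FPKM in CD28 labeled libraries, against 4.40, 4.06 and 4.60 in CD28 controls. SNHG8 had 4.77, 4.77 and 4.47 in CD28 labeled libraries, against 4.12, 4.08 and 4.34 in CD28 controls. SNHG6 (chr8:66921684-66926398, minus strand), the host of SNORD87, had 0.20, 0.04, -0.14 and -0.39. Its PDGFR labeled libraries had 2.84, 2.79 and 2.77 log2 FPKM, against 2.97, 3.48 and 3.11 in PDGFR controls, again without overlap.

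**Figure D2:**
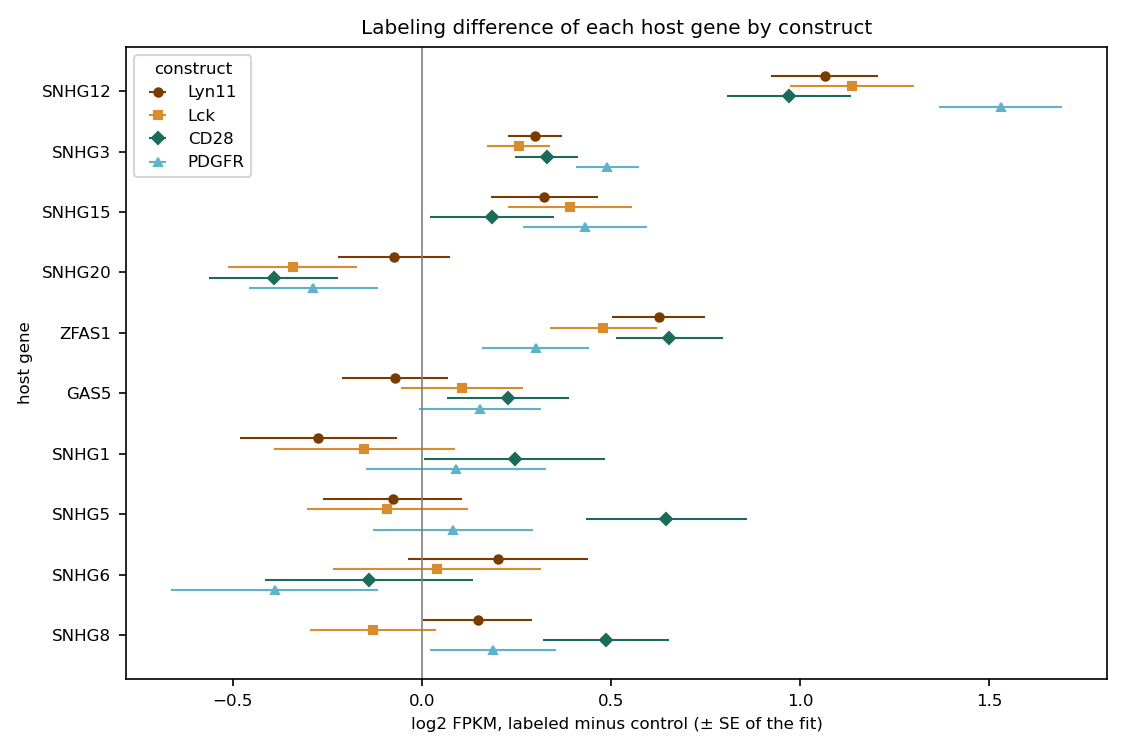
Labeling difference (labeled minus control, log2 FPKM, x axis, ± SE of the fit) of each host gene (y axis) in the 4 constructs (symbols). SNHG12 lies at 0.97 to 1.53, SNHG20 lies below 0 in all 4, and the remaining hosts lie between -0.39 and 0.65.

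Counted over the 10 genes, 4 were called higher (SNHG12, SNHG3, SNHG15 and ZFAS1) and 1 lower (SNHG20) on the average of the constructs, at an adjusted p under 0.05 in limma. Over all genes tested, 4.29% were called higher and 3.08% lower. SNHG20 left that count with median centring, quantile normalization, a stricter filter, construct weights or a replicate block. It also left it in 22 of the 26 fits without 1 library, and stayed in it without Lyn11 labeled replicate 1, Lyn11 control replicate 4, CD28 labeled replicate 2 or CD28 control replicate 3. Within constructs, 2 hosts were called higher in Lyn11, where 0.53% of all genes were higher and 0.0494% lower (0.579% in all). In Lck 1 host was higher, where 0.758% of all genes were higher and 0.0359% lower (0.794% in all). In CD28 2 hosts were higher, where 0.175% of all genes were higher and 0.301% lower (0.476% in all), and in PDGFR 2 were, where 1.37% were higher and 0.758% lower (2.13% in all). No construct had a host called lower. In CD28 the count went to 0 with construct weights or voom on recovered reads, and in Lck it went to 5 (4 higher and 1 lower) with construct weights and stayed at 1 with voom. Of all calls in CD28, 36.8% were higher, against 51.9% with median centring and 58.7% with quantile normalization, and in Lck 95.5% were, against 83.7% with quantile normalization. Labeled libraries were all above controls for 3, 4, 5 and 3 hosts in Lyn11, Lck, CD28 and PDGFR, where the shares over all genes were 3.4%, 12.9%, 7.44% and 7.53%, and all below for 0, 1, 0 and 2, where they were 1.91%, 13.2%, 6.59% and 6.39%. The median difference of the 10 was 0.16 on the average of the constructs, beside -0.01 for all genes. As these contrasts were known when the genes were chosen, nothing further is read from the counts.

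Differences between constructs in the labeling difference are formed from the same values and are not independent of that choice, so they too are a description. Between inside and outside constructs, 0 of 10 hosts were called by limma, and 1 of 22284 genes was (0.00449%). At an unadjusted p under 0.05 there was 1 host, SNHG5, at -0.45 ± 0.21. The 95% interval of the inside minus outside difference was -0.48 to 0.18 for SNHG12, -0.30 to 0.04 for SNHG3, -0.21 to 0.36 for ZFAS1, -0.28 to 0.38 for SNHG15 and -0.21 to 0.48 for SNHG20. Between Lyn11 and Lck, 0 hosts and 0 of all genes were called, with 0 hosts and 71 genes at an unadjusted p under 0.05. Between CD28 and PDGFR, 0 hosts and 11 genes (0.0494%) were called, 1 higher (0.00449%) and 10 lower (0.0449%), and the 1 host at an unadjusted p under 0.05 was SNHG12, at -0.56 ± 0.23 (95% interval -1.04 to -0.08). The SNHG12 difference became -0.32 without CD28 labeled replicate 2 and PDGFR control replicate 2.

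The RNAs that lie inside the hosts have entries of their own and were tested over all genes. Their hosts were chosen with this contrast known in the same libraries, so the p-values below are not independent of that choice. SNORD99, inside SNHG12, rose by 1.27 ± 0.19 on the average of the constructs (adjusted p = 0.000132, limma), with 40 to 157 reads in labeled libraries and 14 to 60 in controls. Its differences, with Lyn11, Lck, CD28 and PDGFR in turn, were 1.20, 1.33, 1.06 and 1.48, beside 1.06, 1.14, 0.97 and 1.53 for SNHG12 from the same libraries. By construct, SNORD99 passed in PDGFR alone (adjusted p = 0.047, limma), with SEs of 0.334 to 0.385. SNORD12C, inside ZFAS1, rose by 0.99 ± 0.21 (adjusted p = 0.00451, limma), with 49 to 148 reads in labeled libraries and 15 to 78 in controls. Its differences were 1.05, 0.55, 1.57 and 0.80, beside 0.63, 0.48, 0.65 and 0.30 for ZFAS1. In no single construct did SNORD12C pass (lowest adjusted p = 0.116, CD28, limma), with SEs of 0.377 to 0.435. SNORD12B, also inside ZFAS1, was measured too unevenly to place, at 0.49 ± 0.61 (adjusted p = 0.75, limma), with 0 to 121 reads in labeled libraries and 0 to 107 in controls. SNORA73B, inside SNHG3, differed by 0.06 ± 0.14 (adjusted p = 0.882, limma), with 75 to 387 reads in labeled libraries and 88 to 314 in controls. Of the 204 small nucleolar and Cajal body RNA genes tested, 11 were called higher and 7 lower on average, 8.82% in all, beside 7.37% of all genes. Reads within these short entries could be the mature guide or the host's intron, which were not separated here.

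**Figure D3:**
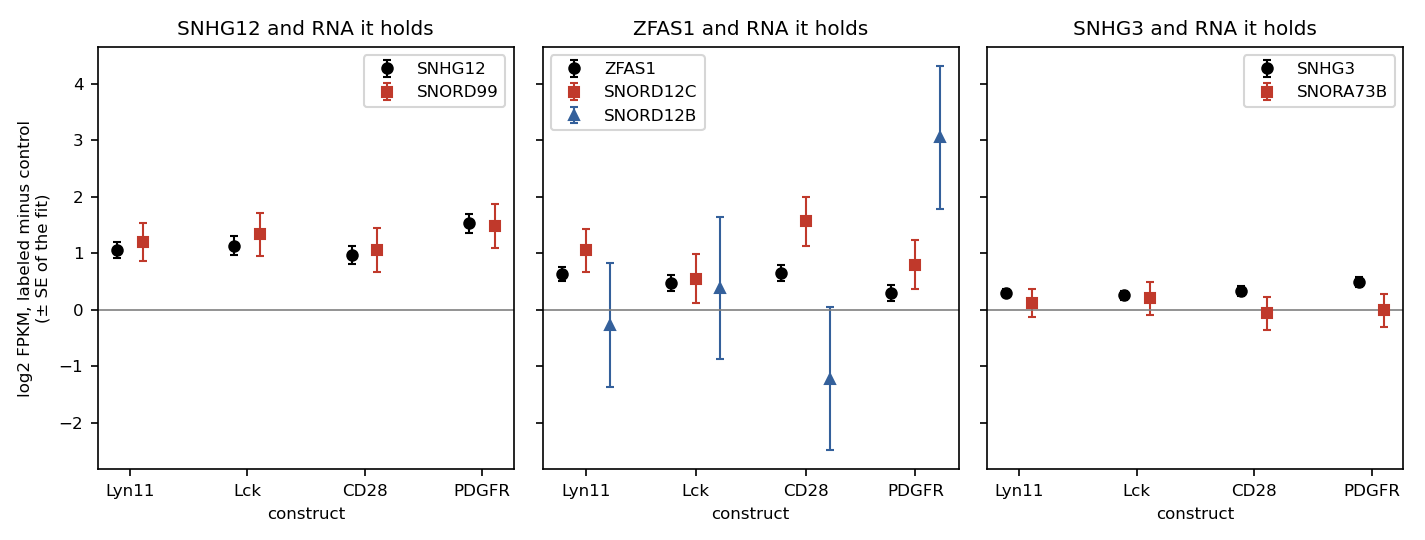
Labeling difference (labeled minus control, log2 FPKM, y axis, ± SE of the fit) by construct (x axis) for SNHG12, ZFAS1 and SNHG3 (black) and the guide RNAs they hold that had an entry of their own (colours). SNORD99 runs beside SNHG12 at 1.06 to 1.48, SNORA73B stays within its SE of 0, and SNORD12B has the widest bars.

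Neighbouring genes that overlap the hosts were compared because strandedness was not given, so reads from overlapping genes on opposite strands cannot be told apart. TRNAU1AP, a selenocysteine tRNA factor on the other strand from SNHG12, shares 8 exon bases with it and differed by -0.06 ± 0.08 on average (adjusted p = 0.801, limma). RCC1, the nuclear exchange factor for Ran, lies on the same strand as SNHG3, shares 242 exon bases and differed by 0.12 ± 0.10 (adjusted p = 0.593). ZNFX1 shares 249 exon bases with ZFAS1 on the other strand and differed by 0.09 ± 0.08 (adjusted p = 0.616). SEC14L1 lies on the same strand as SNHG20, shares 460 exon bases with its GENCODE 29 model, though the authors' SNHG20 entry is shorter than that model, and differed by 0.16 ± 0.12 (adjusted p = 0.525). GAS5-AS1, which shares 42 exon bases with GAS5 on the other strand, rose by 0.75 ± 0.12 (adjusted p = 0.00037), with 109 to 365 reads in labeled libraries and 52 to 193 in controls, while GAS5 itself differed by 0.10 ± 0.08. MCMDC2 shares 365 bases, 29.3% of the exon length of SNHG6, on the other strand. It did not pass the filter, at 27 to 89 reads in labeled libraries and 17 to 70 in controls.

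The unlabeled controls were compared with each other across constructs, and here 3 of 10 were called between the inside and outside constructs in limma, 2 higher and 1 lower inside. Each side held only 2 constructs. The p-values of this comparison rest on the spread between libraries within a construct, not on the spread between constructs. They cannot tell a difference between sides from a difference between single constructs. Over all genes 7.34% were higher and 3.84% lower, or 11.2% in all. SNHG5 had 4.61 to 5.25 log2 FPKM (median 5.00) in the 7 inside controls, against 4.06 to 4.60 (median 4.37) in the 6 outside controls. Those ranges do not touch, a pattern that 3.11% of all genes share (1.25% lie wholly lower inside), and the difference was 0.64 ± 0.15 (adjusted p = 0.0081, limma; 95% interval 0.34 to 0.94). SNHG1 had 5.08 to 5.71 (median 5.59) inside, against 4.65 to 5.36 (median 4.92) outside, and was higher by 0.55 ± 0.16 (adjusted p = 0.0333, limma). Leaving out any 1 of 9 libraries ended that call, with an adjusted p of up to 0.0995, without CD28 control replicate 2. SNHG20 had 1.91 to 2.50 (median 2.04) inside, against 2.27 to 2.87 (median 2.54) outside, and was lower by 0.47 on the log2 scale (-0.47 ± 0.12, adjusted p = 0.013, limma). The other 7 hosts did not pass: SNHG8 at 0.32 (adjusted p = 0.0744), SNHG12 at -0.30 (adjusted p = 0.0886) and GAS5 at 0.29 (adjusted p = 0.0959) were closest. With median centring, which moved the median of all genes from 0.05 to 0.13, SNHG8 (adjusted p = 0.0356) and GAS5 (adjusted p = 0.0402) also passed, both higher inside, and 80.1% of all calls were higher inside, against 65.7% without it. With voom on recovered reads scaled by library totals, which moved that median to -0.06, 36.9% of all calls were higher inside, and 4 hosts passed. These were SNHG5 at 0.53 (adjusted p = 0.00946) and SNHG1 at 0.45 (adjusted p = 0.0473), higher inside, and SNHG20 at -0.57 (adjusted p = 0.00369) and SNHG12 at -0.40 (adjusted p = 0.0297), lower inside. SNHG8 also passed with quantile normalization (adjusted p = 0.0248), and SNHG12 passed without CD28 labeled replicate 2 and PDGFR control replicate 2 (adjusted p = 0.0445). The control values also enter the labeling differences that were known when the hosts were chosen, so these calls are not fully independent of that choice. Depth moved with the side, and its part in these differences was not tested.

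**Figure D4:**
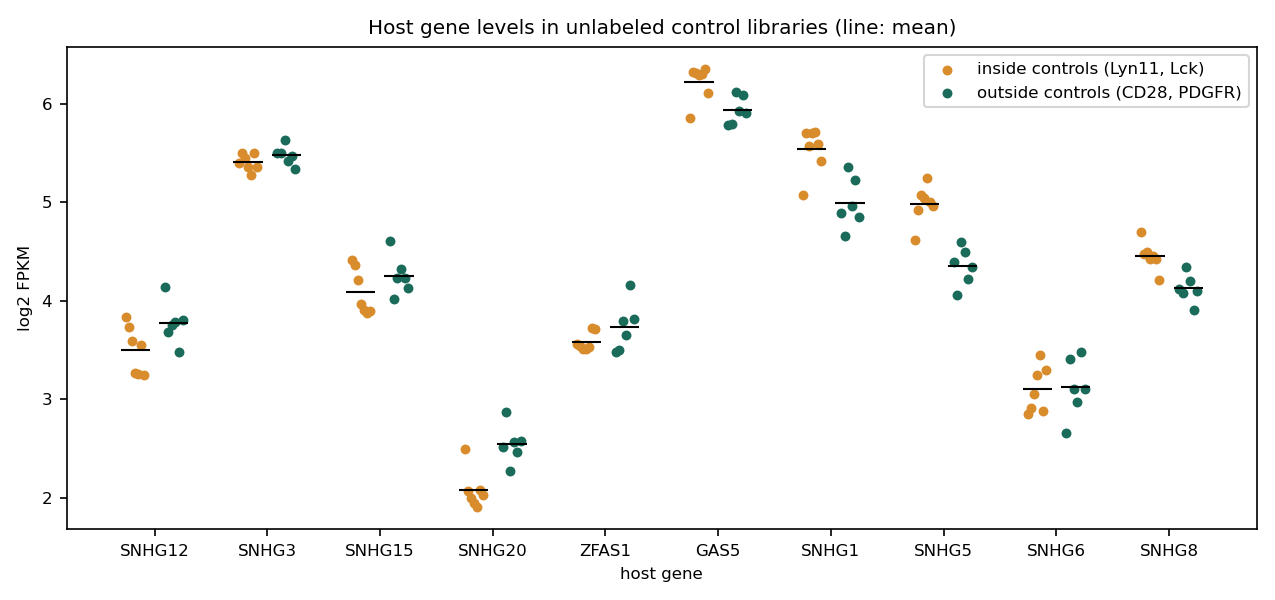
Levels of the 10 host genes (log2 FPKM, y axis) in the unlabeled controls, inside (Lyn11 and Lck, 7 points) left of outside (CD28 and PDGFR, 6 points), with the mean as a line. SNHG5 is the host whose inside points, 4.61 to 5.25, all lie above its outside points, 4.06 to 4.60.

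Within groups, some hosts moved together from library to library. Deviations of single libraries from their group mean correlated between GAS5 and SNHG1 with Pearson r = 0.948 and Spearman rho = 0.919 over 26 libraries, and r = 0.917 in the 24 left without the 2 most extreme. SNHG1 and SNHG5 had r = 0.815 (rho = 0.687; r = 0.686 in the 24), GAS5 and SNHG5 r = 0.792 (rho = 0.649; r = 0.664), and SNHG12 and SNHG15 r = 0.79 (rho = 0.739; r = 0.743). SNHG12 and SNHG3, both apart in every construct, had r = 0.319. These are descriptions without a test, chosen after the 45 pairs were seen, and the points share a library, its depth and its scaling. In Lyn11 labeled libraries GAS5 had 6.47, 5.87, 6.40 and 5.75 log2 FPKM, against 5.86, 6.32, 6.31 and 6.29 in Lyn11 controls. SNHG1 had 5.83, 4.92, 5.55 and 4.65 in Lyn11 labeled libraries, against 5.08, 5.70, 5.57 and 5.71 in Lyn11 controls. Labeled replicates 2 and 4 and control replicate 1 were low for both genes, and SNHG5 was low in the same 3 libraries.

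**Figure D5:**
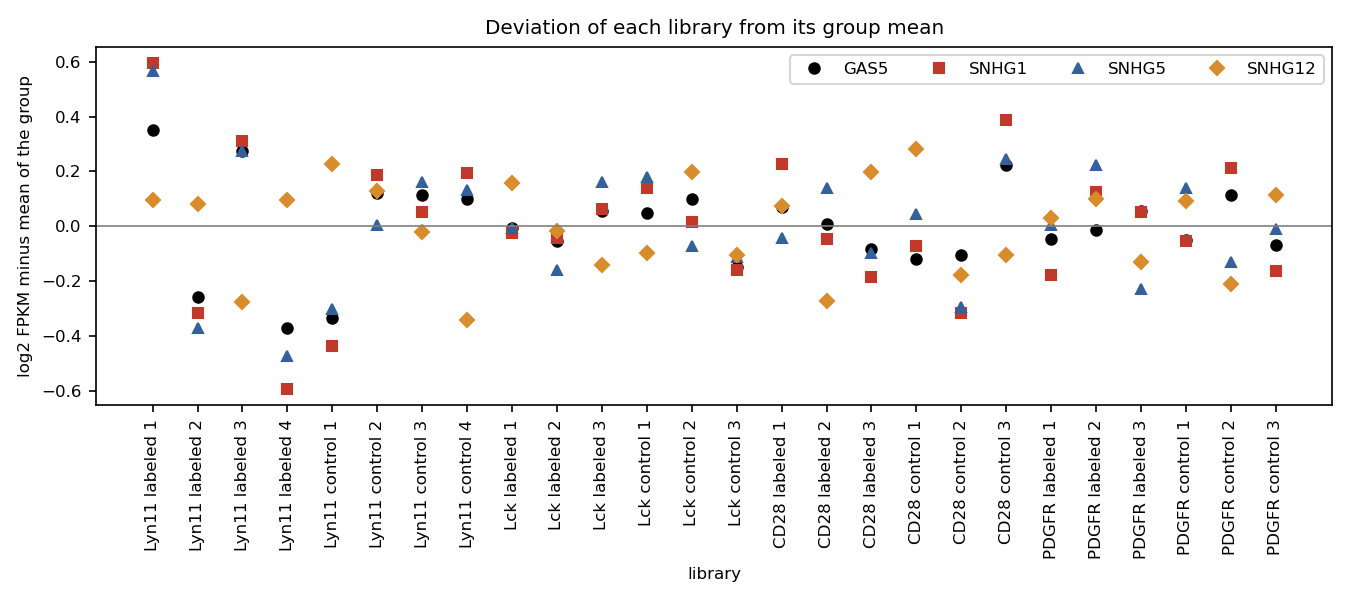
Deviation of each library (x axis) from its group mean in log2 FPKM (y axis) for GAS5, SNHG1, SNHG5 and SNHG12. GAS5, SNHG1 and SNHG5 lie low together in Lyn11 labeled replicates 2 and 4 and Lyn11 control replicate 1, and SNHG12 does not.

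Across all 26 libraries, the 5 genes most like SNHG12 by Pearson r were RNVU1-7 (0.928), KCNJ14 (0.925), SNHG3 (0.919), SNORD3B-2 (0.919) and HEXIM1 (0.916). RNVU1-7 is a variant U1 spliceosomal RNA gene, SNORD3B-2 a copy of the U3 small nucleolar RNA and HEXIM1 an inhibitor of the elongation factor P-TEFb. For ZFAS1 they were RNVU1-15 (0.852), RNU1-85P (0.852), RNU5B-1 (0.843), LINC01963 (0.823) and MIR6077 (0.822), and for GAS5 they were SNHG1 (0.91), AASDH (0.845), TIAL1 (0.821), DMXL2 (0.818) and INPP5F (0.815). The average labeling difference of the genes nearest to SNHG12 ran from 0.34 for SNHG3 to 2.37 for SNORD3B-2, and that of the genes nearest to GAS5 from -0.06 for DMXL2 to 0.09 for INPP5F. These r values include differences between groups, among them the labeling difference that was known when the hosts were chosen. They are a description without a test. With group means removed, r was 0.319 for SNHG12 and SNHG3 and 0.948 for GAS5 and SNHG1.

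The first transcribed bases were compared because several hosts belong to the 5′ terminal oligopyrimidine class, whose transcripts begin with C and a run of pyrimidines. RefSeq (GRCh38.p14) start windows matched 8 of the 10 hosts. Capitals mark the leading run of C and T in the first 30 bases, on the minus strand of chr1:28581844-28581873 for SNHG12, the plus strand of chr20:49278642-49278671 for ZFAS1, the minus strand of chr6:85678704-85678733 for SNHG5 and the plus strand of chr1:28505943-28505972 for SNHG3.
SNHG12: CCTTTCTCCCCgccgcattcccggtgtcga
ZFAS1: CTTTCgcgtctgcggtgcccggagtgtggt
SNHG5: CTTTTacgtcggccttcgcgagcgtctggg
SNHG3: gattctctaactgcgcatgcttctgcgcac
A C followed by at least 4 pyrimidines (C or T) opened the windows of SNHG12, ZFAS1 and SNHG5, 3 of 8, and 4.07% of 35116 windows of all genes. SNHG3, SNHG20, GAS5, SNHG1 and SNHG8 did not open so at the RefSeq start, which says only that these letters are not at that position. The GAS5 window (chr1:173869016-173869045, minus strand) lies outside the GENCODE 29 gene, whose span ends at 173868882. The SNHG3 window also lies outside its GENCODE 29 gene, whose span starts at 28505980. Other starts of these genes were not examined.

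Other hosts and the proteins that work with the guides were examined as lists. Of 24 other noncoding hosts, 17 had an entry and 15 were tested. On the average of the constructs 0 of the 15 were called by limma, with a median difference of 0.10 beside -0.01 over all genes, of which 7.37% were called. SNHG21 was nearest, at 0.47 ± 0.15 (adjusted p = 0.0646), then SNHG17 at 0.23 ± 0.08 (adjusted p = 0.107). In the controls, 2 of the 15 were higher and 3 lower inside than outside (33.3%, beside 11.2% of all genes), among them SNHG16 at 0.45 ± 0.09 (adjusted p = 0.00357), SNHG4 at -0.47 ± 0.09 (adjusted p = 0.00336) and SNHG17 at -0.54 ± 0.12 (adjusted p = 0.00677, all limma). Among 223 tested protein-coding hosts, 7 were higher and 3 lower with labeling on average (4.48%, beside 7.37% of all genes). These included KANSL2, a subunit of a histone acetyltransferase complex, at 0.35 ± 0.06 (adjusted p = 0.000388, limma). STAB2 was at 0.85 ± 0.16 (adjusted p = 0.00145, limma) and PABPC4, a poly(A)-binding protein, at 0.24 ± 0.05 (adjusted p = 0.00232, limma). In the controls 47 were higher and 7 lower inside (24.2%, beside 11.2% of all genes), with RPL4 at 0.89 ± 0.14 (adjusted p = 0.000662) and IARS at 0.62 ± 0.08 (adjusted p = 6.98e-05). For both lists, the p-values of the control comparison do not cover the spread between constructs of a side.

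Of the box C/D core proteins, NOP56 rose by 0.24 ± 0.07 on average (adjusted p = 0.0364, limma), and FBL, the methyltransferase, at 0.09 ± 0.11 (adjusted p = 0.756), NOP58 at -0.04 ± 0.09 (adjusted p = 0.889) and SNU13 at 0.09 ± 0.11 (adjusted p = 0.716) did not pass. Of 4 box H/ACA core proteins 0 were called, with DKC1, the pseudouridine synthase, at 0.01 ± 0.07 (adjusted p = 0.978). For the assembly factors the count was 0 of 8 tested. At the 7.37% called over all genes, counts of 0 in lists this short say little. Of 10 nonsense-mediated decay factors 0 were called, with UPF3B at -0.31 ± 0.10 (adjusted p = 0.0555) and SMG8 at 0.30 ± 0.10 (adjusted p = 0.0848) nearest.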

How the data were processed

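RNA levels were measured in 26 libraries of 8 groups, taken from the sample titles. The deposited values are log2 FPKM per gene (fragments relative to exon length and library size). Per the submitters' processing notes, the authors aligned reads to hg38 with HISAT2 2.1.0 and used edgeR, without a version. No counting tool is named in the sources used here. Symbols, coordinates and exons came from GENCODE 29 (of 25745 identifiers 24065 matched exactly, 1589 after their version was dropped and 91 not at all), and numbers of guide RNAs and start windows from RefSeq.

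Read numbers were recovered by undoing the prior count in the log2 values. They were whole to within 0.05 read in every library for 25738 genes. They serve to describe depth and for the voom alternative. The prior count understates differences where reads are few.

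Genes with log2 FPKM above 0 in at least 3 libraries were fitted with limma 3.58.1 in R 4.3.3, with a mean per group, a prior spread that follows intensity and 18 degrees of freedom. P-values are two-sided, adjusted by Benjamini-Hochberg over 22284 genes within each of 9 comparisons, and adjusted p-values in the text come from this fit. The fit was tested on simulated data. The design text calls the libraries biological replicates, and their separate origin is not described further.

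The members, gene lists and tests were chosen with earlier results of these data known. Genes named from a list were taken from the 4 with the lowest adjusted p in that comparison, and not all of those 4 were always named. Genes most like a member were the 5 with the highest Pearson r among tested genes with a symbol, a mean log2 FPKM of at least 1 and no overlap with it. Alternatives were no filter, a stricter filter, median centring, quantile normalization, a pseudocount of 1 FPKM, limma voom on recovered reads (with library totals, chosen after seeing the data, in place of the planned TMM scaling, which was run and then replaced), weights per construct, a replicate block, leaving out each library, and leaving out the libraries that stood apart. Some items are not reported here.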

Additional observations from a re-analysis of the deposited data

Results flagged for a closer look

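Among the 20 groups of 4 libraries (10 hosts, Lyn11 labeled and Lyn11 control), 3 had 1 library far from the other 3, by a gap that takes up most of the group's range and exceeds Dixon's 95% critical value. Chance gives such a gap in about 1 of 20 groups. SNHG12 was lowest in Lyn11 labeled replicate 3, at 4.397 log2 FPKM, with a gap of 0.959 of the range. ZFAS1 was highest in Lyn11 labeled replicate 1, at 4.493 log2 FPKM, with a gap of 0.897. GAS5 was lowest in Lyn11 control replicate 1, at 5.86 log2 FPKM, with a gap of 0.949, and this library was also low for SNHG1 and SNHG5. The library with the low GAS5 value was the deepest of all, at 34.82 M recovered reads, and the part of depth in it was not tested.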

How the results depend on the processing

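Of 3280 recomputed values of single hosts and hosted RNAs, 3197 kept their side of the threshold and moved by less than the residual SD. Some of these changed sign without being called, such as SNHG6 in the controls, from -0.006 to 0.079 with median centring. Among all 3280, 0 changed sign with a call. Many of the 3280 estimates could not move, so the share that stayed is no measure of robustness. Another filter, construct weights, the replicate block or leaving out a library outside the comparison all leave the estimate as it was. On the average of the constructs, SNORD99 and SNORD12C passed under every alternative run. Voom here means voom on recovered reads with library totals, chosen after seeing the data. The planned voom with TMM scaling was run first and then replaced, because its scaling tool is kept for deposited counts. It left 1 more host called in CD28 and in PDGFR than library totals did, and its split of calls in the controls stayed near that of the log2 values. Counts of genes called moved more. The average of 1642 went to 1049 with a stricter filter. Lyn11, 129, went to 256 with quantile normalization and 256 without the 2 libraries that stood apart. Lck, 177, went to 106 with a stricter filter, 484 with quantile normalization, 296 with the pseudocount, 298 with voom, 1831 with construct weights and 361 without those 2. CD28, 106, went to 63 with quantile normalization, 17 with voom and 15 with weights, and PDGFR, 475, to 234 with a stricter filter, 54 with voom and 119 with weights. Inside minus outside, 1, went to 4 with quantile normalization and with the pseudocount, 0 with voom and weights and 8 without those 2. CD28 minus PDGFR, 11, went to 4, 5, 0, 3 and 24 with a stricter filter, quantile normalization, voom, weights and without those 2. Hosts called on average (5) went to 4, by the loss of SNHG20, with a stricter filter, median centring, quantile normalization, weights or the replicate block. They went to 3 in Lyn11 without those 2 (2 otherwise), to 2 with quantile normalization and 5 with weights in Lck (1 otherwise), to 3 with median centring, 1 with quantile normalization and 0 with voom or weights in CD28 (2), to 1 with quantile normalization or voom in PDGFR (2), and to 5 with median centring and 4 with quantile normalization, voom or without those 2 in the controls (3). The cause was not tested.

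Leaving out 1 library at a time gave 1293 to 1781 genes on average (4 to 5 hosts), 71 to 179 in Lyn11 (1 to 3), 74 to 244 in Lck (1), 42 to 464 in CD28 (1 to 2), 334 to 727 in PDGFR (2), 0 to 6 inside minus outside, 0 for Lyn11 minus Lck, 9 to 111 for CD28 minus PDGFR, and 1492 to 3042 in the controls (2 to 4 hosts). The extremes were without CD28 control replicate 1 and CD28 labeled replicate 1 for CD28, and without Lck labeled replicate 1 for the low Lck count. PDGFR control replicate 1 gave the high count for PDGFR and for CD28 minus PDGFR when left out.

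Replicate numbers did not pair the libraries, since deviations of the same number correlated at -0.288 to 0.166. With the replicate block, 60 genes were called in Lyn11, 64 in Lck, 29 in CD28 (1 host) and 290 in PDGFR, 0 inside minus outside and 2 for CD28 minus PDGFR. No block was possible for the controls, which share no pairs across constructs.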
